A study of Homo sapiens with 54 samples.

Results

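A pair of antisense oligonucleotides against C9orf72, ASO2 and ASO4, was compared, 1 against the other, in HEK293T, a line derived from human embryonic kidney. The comparison took the 3 ASO2 libraries against the 3 ASO4 libraries, 6 of the 54 libraries of the series, chosen by their labels. Each of the 18 groups in the series held 3 libraries, and the other 15 groups carried a Cas13d effector (WT, N2V7 or N2V8) with a crRNA. Untransfected cells (UT, n = 3) served as the untreated level. All 3 groups used here had the wild-type genotype, and the labels give harvest 48 h after transfection, whereas a later harvest is stated in the study for the RNA-seq of HEK293T cells. The labels describe the ASO samples only as reference samples treated with an ASO. For its qPCR the study describes transfecting these cells with the ASOs. The dose, chemistry and transfection reagent of the oligonucleotides are not given in the sources used here, and no group received a control oligonucleotide. Both groups received an oligonucleotide, but a difference between ASO2 and ASO4 cannot be told apart from a difference in dose or delivery. The sequences of both oligonucleotides are not analysed here.

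An antisense oligonucleotide base-pairs with its target RNA, and the common gapmer design then recruits RNase H1, which cuts the RNA strand of the duplex. C9orf72 encodes a protein that works in a complex with SMCR8 and WDR41 and takes part in autophagy and lysosome function. A repeat expansion in its first intron is a cause of amyotrophic lateral sclerosis and frontotemporal dementia, and the repeat lies in only some of its transcript variants. In the study's description, ASO2 binds intron 1, which the repeat-carrying variants V1 and V3 hold, while ASO4 binds exon 2, which is present in all 3 main variants. In the GENCODE annotation of GRCh38, C9orf72 lies on the minus strand of chromosome 9. RefSeq places the gene at 27546546 to 27573866. Exon 2 has 488 bases at 27566677 to 27567164 and is part of 8 of 8 annotated transcripts that were examined. The first exons at 27573431 to 27573481 (51 bases) and 27573709 to 27573866 (158 bases) belong to different transcripts. The counts are summed over all transcripts of a gene, so variants cannot be told apart in these values. By qPCR in HEK293T cells, the study found only V3 lowered by ASO2, and both V3 and the pool of all variants lowered by ASO4. A gene-level value for ASO2 therefore does not show whether V3 fell.

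Total estimated counts of the 6 libraries ranged from 11416452 to 15099153. Ribosomal RNA genes took 2.4 to 3.2% of counts in the ASO2 libraries and 3.12 to 3.83% in the ASO4 libraries. The spread between replicates, as the SD of log2 residuals, was 0.280 in ASO2 and 0.284 in ASO4. Genes typical of the HEK293 line summed to 2180 to 2260 CPM (counts scaled to library size) in ASO2 and 2100 to 2200 CPM in ASO4. Markers of other lineages summed to 61.3 to 66.3 and 59.3 to 63.3 CPM, and 7 of those 25 markers were at 0 in all 6 libraries. The study describes its in vitro replicates as biologically independent, and the labels do not say what separated the libraries of a group.

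C9orf72 was high in ASO2 cells and low in ASO4 cells. Its level was 28.7, 30.3 and 30.2 CPM in the ASO2 libraries and 10.5, 11.9 and 10.6 CPM in the ASO4 libraries. The UT libraries held 27.5, 30.0 and 29.4 CPM. All ASO2 and UT libraries lay in the same range, and all ASO4 libraries lay far below it. C9orf72 was higher in ASO2 than in ASO4 by 1.44 ± 0.10 (log2 difference ± SE, 95% interval 1.23 to 1.64, adjusted p = 3.15e-17, n = 3 per group). Against UT, the log2 difference was 0.04 for ASO2 (adjusted p = 0.852) and -1.40 for ASO4 (adjusted p = 2.17e-16). The mean of ASO4 was the lowest of the 18 groups, and the means of the 15 effector groups ran from 24.4 to 29.9 CPM.

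**Figure D1:**
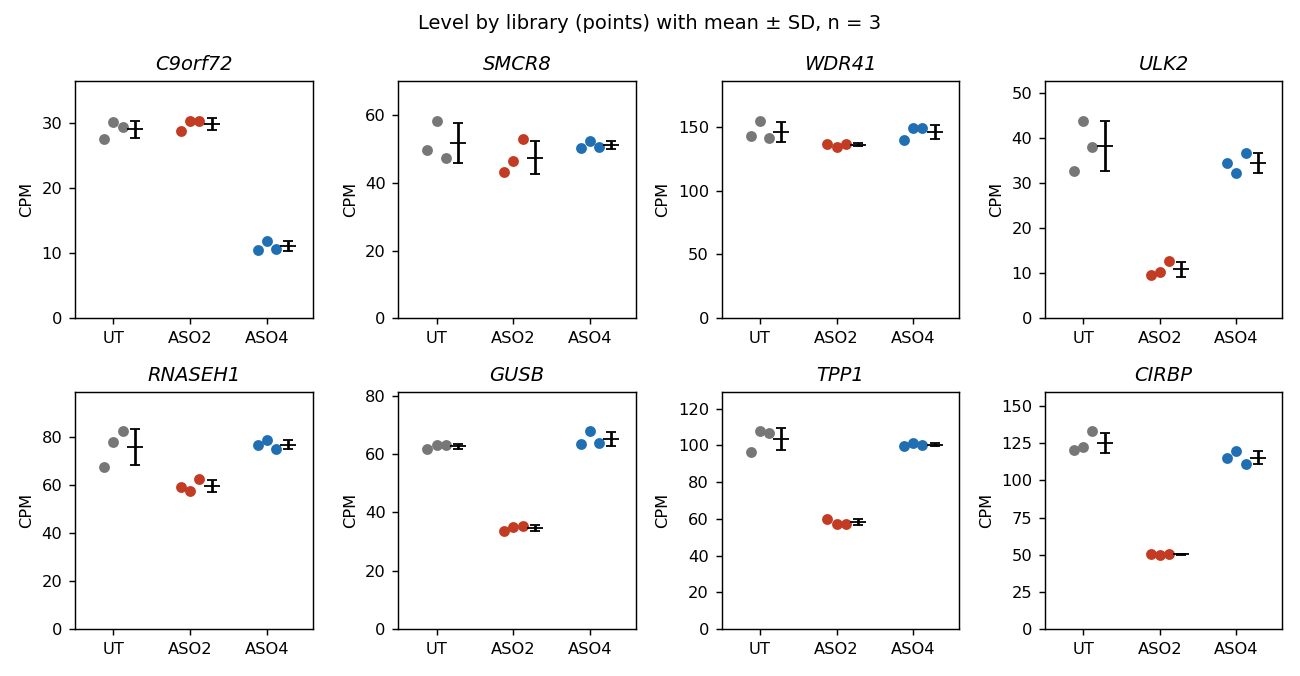
CPM of C9orf72, its complex partners SMCR8 and WDR41, ULK2, RNASEH1, the lysosomal enzymes GUSB and TPP1, and CIRBP in UT, ASO2 and ASO4 cells. Points are libraries, and bars give mean ± SD (n = 3). C9orf72 was low in ASO4 libraries alone (10.5 to 11.9 CPM), while ULK2 was low in ASO2 libraries alone (9.52 to 12.7 CPM).

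The other subunits of the complex did not show the difference. SMCR8, the DENN-domain partner of C9orf72, was at 43.1, 46.5 and 52.8 CPM in ASO2 and at 50.3, 52.5 and 50.6 CPM in ASO4. The groups overlapped, with a log2 difference of -0.11 (adjusted p = 0.312). WDR41, the subunit that brings the complex to lysosomes, was at 137, 135 and 137 CPM in ASO2 and at 140.0, 149 and 149 CPM in ASO4, a log2 difference of -0.10 (adjusted p = 0.144). Of the 5 tested genes within 1 Mb of C9orf72, LINGO2, MOB3B, CAAP1, IFT74 and PLAA, none was called. With 12.5% of all tested genes called, so few genes cannot show whether the region differs from the rest. LINGO2 had means of only 0.72 CPM in ASO2 and 0.40 CPM in ASO4. MOB3B, the nearest of the 5, differed by -0.21 on the log2 scale (adjusted p = 0.0736).

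RNASEH1, the enzyme that cuts RNA paired with DNA, was lower in ASO2 than in ASO4. Its level was 59.1, 57.6 and 62.6 CPM in ASO2 and 76.6, 78.9 and 75.2 CPM in ASO4, with UT at 67.5, 77.8 and 82.5 CPM. The log2 difference was -0.36 ± 0.06 (adjusted p = 7.17e-06), and the ASO2 mean was the lowest of the 18 groups. That rank was shared by 58.9% of all genes called lower in ASO2. RNASEH2C, a subunit of RNase H2, went the other way, with 25.3, 25.5 and 25.7 CPM in ASO2 against 17.1, 18.5 and 16.1 CPM in ASO4 (log2 difference 0.57, adjusted p = 9.01e-06). These were the only called genes among 15 tested genes of RNase H and antisense strand removal, 6.67% higher and 6.67% lower. The shares over all tested genes, 5.15% higher and 7.33% lower, were near those. None of 35 tested genes for proteins that bind phosphorothioate oligonucleotides was called in edgeR's test, nor in limma or DESeq2, and their median log2 difference was 0.08. Without the fold threshold, 7 of them were higher and 8 lower in ASO2 at an adjusted p under 0.05 in edgeR. That cut was passed by 3635 of all 15378 tested genes in either direction. At an unadjusted p under 0.05, 13 were higher and 9 lower, against 34.9% of all tested genes in either direction. The libraries of the groups did not overlap for 21 of the 35, against 36.4% of all tested genes. Without ASO2 replicate 3 or ASO4 replicate 1, 1 of the 35 was called higher, and without ASO2 replicate 2, 1 was called lower. The RNase H list had 2 lower without ASO2 replicate 3 or ASO4 replicate 2.

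Across all genes, the oligonucleotides differed well beyond their target. Of 15378 tested genes, 1919 (12.5%) were called, meaning a log2 difference beyond 0.32 in either direction and a Benjamini-Hochberg adjusted p under 0.05. Among these, 792 (5.15%) were higher and 1127 (7.33%) lower in ASO2, and the median log2 difference of all tested genes was 0.01. Most were small, since 217 called genes (1.41%) passed 2-fold, 116 higher and 101 lower. Both groups of libraries had no overlap for 5597 genes (36.4%), and 1806 genes (11.7%) were called without overlap. With UT as the base, 2472 genes (16.1%, 7.07% higher and 9.01% lower) were called for ASO2 and 328 (2.13%, 0.917% higher and 1.22% lower) for ASO4. Those counts rest on the same UT libraries and the same fit.

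**Figure D2:**
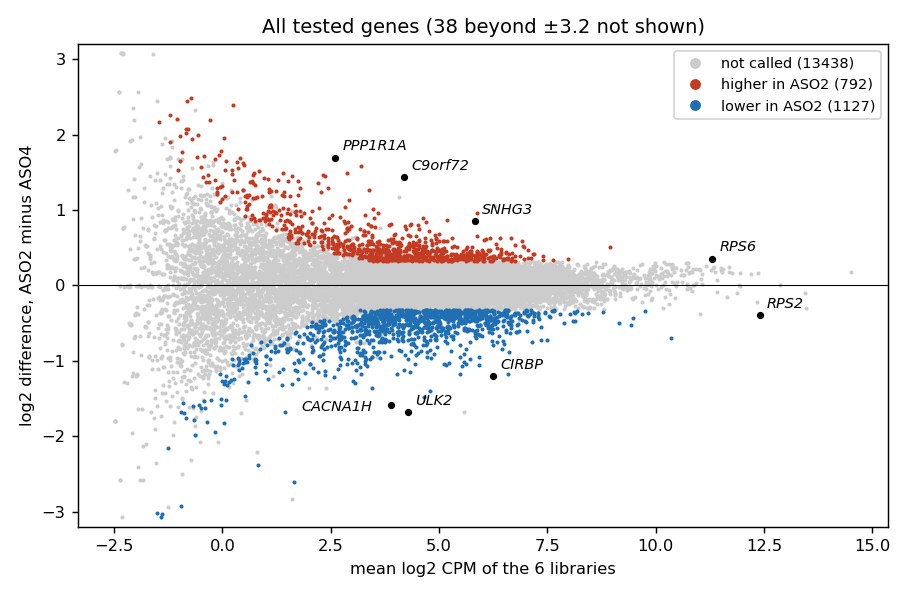
Log2 difference between ASO2 and ASO4 (y axis) against mean log2 CPM of the 6 libraries (x axis) for the tested genes. Red points mark the 792 genes called higher in ASO2 and blue points the 1127 called lower. The 38 genes beyond 3.2 in either direction and those at 0 in all 6 libraries are not drawn.

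The 12 largest falls were ULK2, CACNA1H, GARRE1, FMNL2, PLXNA3, SPATA20, DENND2A, FAM160B2, CIRBP, COL23A1, GAREM2 and TRIO, with log2 differences from -1.68 to -1.18. ULK2, a kinase that starts autophagy and a relative of ULK1, led them (chromosome 17, 19770830 to 19867936, GRCh38). It was at 9.52, 10.2 and 12.7 CPM in ASO2 and at 34.6, 32.2 and 36.6 CPM in ASO4 (-1.68 ± 0.09, adjusted p = 4.84e-21). UT libraries held 32.7, 43.9 and 38.0 CPM, so the ASO4 libraries lay in or near the UT range and the ASO2 libraries below it. CACNA1H, a T-type calcium channel subunit, was at 8.22, 9.46 and 7.92 CPM in ASO2 and 25.9, 24.7 and 26.0 CPM in ASO4 (-1.59 ± 0.11, adjusted p = 1.54e-17). GARRE1, an effector of Rac signalling, was at 13.6, 16.5 and 14.7 CPM in ASO2 against 38.5, 43.9 and 42.1 CPM in ASO4 (-1.48 ± 0.08, adjusted p = 4.84e-21). In both genes each ASO2 library lay below every ASO4 and UT library.

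FMNL2, a formin that elongates actin filaments, was at 16.2, 19.97 and 14.8 CPM in ASO2 and 43.2, 47.3 and 43.8 CPM in ASO4 (-1.40 ± 0.08). TRIO, an exchange factor for small GTPases, was at 32.7, 30.4 and 26.5 CPM against 67.6, 80.6 and 55.4 CPM (-1.18 ± 0.10). PLXNA3, a semaphorin receptor, was at 6.37, 8.23 and 5.80 CPM against 20.2, 15.98 and 15.98 CPM (-1.36 ± 0.14). COL23A1, a transmembrane collagen, fell by 1.18 on the log2 scale, with 2.63 to 4.18 CPM in ASO2 and 7.08 to 7.97 CPM in ASO4. CIRBP, the cold-inducible RNA-binding protein, was the most abundant and the tightest of the 12, at 50.3, 49.8 and 50.6 CPM in ASO2 against 115, 120.0 and 111 CPM in ASO4 (-1.20 ± 0.07, adjusted p = 1.25e-19). FAM160B2 was less even, with 1 ASO2 library at 5.82 CPM and the others at 2.89 and 2.78 CPM. In 11 of the 12 genes, DENND2A aside, the ASO2 mean was the lowest of the 18 groups. That also held for 58.9% of all genes called lower in ASO2 and for 12.3% of all tested genes. The 12 were picked for their low ASO2 values, so this rank is partly built in. Against UT, the 12 log2 differences ran from -1.83 to -1.05 for ASO2 and from -0.28 to 0.17 for ASO4.

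The 12 largest rises were PPP1R1A, SKIDA1, NGFR, HERPUD2-AS1, C9orf72, C11orf71, LGALS1, NIPBL-DT, P3H2, SAPCD2, PAQR9 and FRK, with log2 differences from 1.02 to 1.69. Apart from C9orf72, they were expressed at low levels. PPP1R1A, an inhibitor of a protein phosphatase, was at 9.65, 10.2 and 12.8 CPM in ASO2 and 4.69, 2.54 and 2.75 CPM in ASO4 (1.69 ± 0.25, adjusted p = 1.24e-06). SKIDA1, a SKI/DACH-domain protein, was at 11.2, 12.4 and 13.1 CPM against 5.36, 3.90 and 3.64 CPM (1.496 ± 0.18, adjusted p = 4.51e-09). NGFR, a neurotrophin receptor, was at 7.46, 9.72 and 7.02 CPM against 3.13, 2.997 and 2.601 CPM (1.47 ± 0.18, adjusted p = 8.06e-09). In each of these genes the UT libraries lay with the ASO4 libraries, between 2.22 and 4.20 CPM.

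LGALS1, a galectin, was at 8.56, 7.71 and 8.41 CPM in ASO2 and 2.53, 3.996 and 3.64 CPM in ASO4 (1.29 ± 0.18). P3H2, a collagen prolyl hydroxylase, was at 7.53, 5.87 and 8.49 CPM against 2.61, 2.54 and 4.09 CPM (1.24 ± 0.21), and UT lay between them at 4.57 to 5.05 CPM. P3H2 and C9orf72 were thus the members of the 12 with called falls in ASO4 against UT, by 0.65 and 1.40 on the log2 scale. FRK, a tyrosine kinase, was at 5.41, 7.09 and 6.94 CPM in ASO2 and 2.83, 3.18 and 3.49 CPM in ASO4, while the 15 effector groups had means of 4.69 to 7.42 CPM. NIPBL-DT and HERPUD2-AS1 are divergent or antisense transcripts, and whether the counting used strand is not given in the sources used here, so their reads cannot be told apart with certainty from those of their neighbours. Without C9orf72, the log2 differences against UT ran from 0.59 to 1.89 for ASO2 and from -0.65 to 0.20 for ASO4 in the other 11. All 24 genes kept their call under each of 16 alternative settings.

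**Figure D3:**
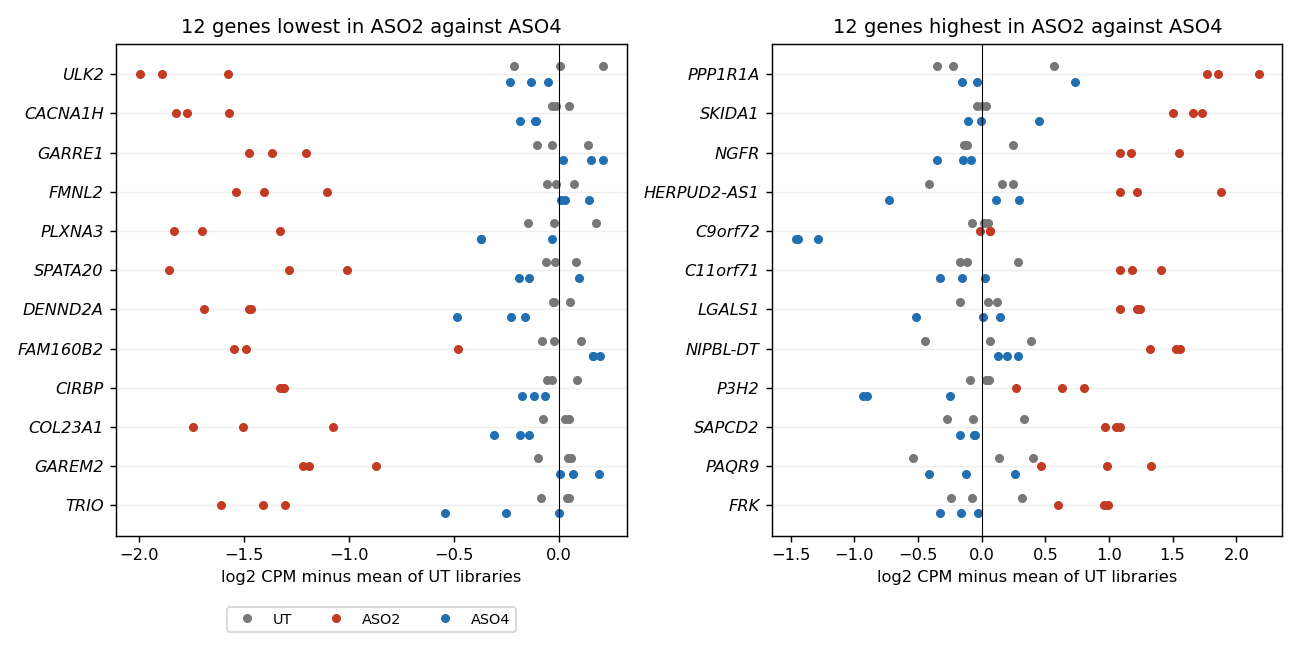
Log2 CPM of each UT (grey), ASO2 (red) and ASO4 (blue) library minus the mean of the UT libraries for the 12 largest falls (left) and 12 largest rises (right) in ASO2 against ASO4. In the left panel ASO4 points lie with or near UT, and ASO2 points lie further to the left. For CACNA1H, DENND2A, COL23A1 and CIRBP every ASO4 library was below every UT library, and for FAM160B2 above. In the right panel C9orf72 shows the reverse arrangement, with ASO2 at the UT level and ASO4 to the left.

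Gene lists were then read against the shares of all tested genes, 5.15% higher and 7.33% lower in ASO2. Among 23 tested genes of the C9ORF72 complex and its partners, C9orf72 and UBQLN2 were higher and ULK2 was lower, with a median log2 difference of 0.02. UBQLN2, a ubiquilin that shuttles proteins to the proteasome, was at 58.7, 61.6 and 59.0 CPM in ASO2 and 45.4, 47.4 and 42.8 CPM in ASO4 (0.40, adjusted p = 1.56e-05). Of 38 tested autophagy genes, 1 was higher (WDR45) and 3 were lower. These were ATG9A, the lipid scramblase of the autophagosome (-0.60, adjusted p = 2.51e-10), ATG2A, its lipid-transfer partner (-0.56, adjusted p = 1.77e-05), and PIK3C3, the lipid kinase VPS34 (-0.54, adjusted p = 2.52e-05). The median of the autophagy list was 0.05, so most members did not follow them.

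A few lysosomal enzymes held clearly separated values. Over the whole lysosomal list, the libraries of the groups did not overlap for 11 of 44 genes, against 5597 of all 15378 tested genes. Of 44 tested, 5 were lower in ASO2 (11.4%) and 1 higher (2.27%), with a median of -0.01, and 2 were higher without ASO4 replicate 2. GUSB, beta-glucuronidase, was at 33.5, 35.0 and 35.3 CPM in ASO2 and 63.5, 67.8 and 63.9 CPM in ASO4 (-0.91 ± 0.06, adjusted p = 9.93e-19). TPP1, a lysosomal peptidase, was at 60.0, 56.9 and 57.4 CPM against 99.5, 101 and 100.3 CPM (-0.79 ± 0.06, adjusted p = 6.61e-15). For both enzymes the ASO2 mean was the lowest of the 18 groups, as for 58.9% of all genes called lower in ASO2. SGSH and GAA, which degrade heparan sulfate and glycogen, were also lower (-0.56 and -0.39).

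Genes of innate sensing moved in both directions. Of 18 tested nucleic acid sensors and their adaptors, 3 were lower in ASO2, namely TRAF3 (-0.68, adjusted p = 1.79e-06), IRF3 (-0.56, adjusted p = 1.35e-07) and EIF2AK2 (-0.34, adjusted p = 0.00097). MYD88, a Toll-like receptor adaptor, was higher (0.51, adjusted p = 0.00656) but lost its call without ASO4 replicate 3 (0.39, adjusted p = 0.0727). IRF3, the transcription factor that switches on interferon genes, was at 22.5, 22.2 and 22.6 CPM in ASO2 and 34.9, 28.9 and 35.2 CPM in ASO4. Of the 38 tested genes listed as interferon-stimulated, 7 were higher (18.4%) and none was lower, with a median of 0.19. The interferon list did not hold EIF2AK2, which was counted among the sensors. For this and every other list with a direction that had no call in edgeR, limma and DESeq2 made no call in that direction either. At an unadjusted p under 0.05, 1 interferon-stimulated gene, 1 NF-kB target, 1 heat shock gene, 3 mitochondrial ribosomal protein genes, 2 mitotic genes and no histone or small nucleolar RNA host gene was lower, while no DNA replication gene and 13 splicing factors were higher. Over all tested genes, 34.9% passed that cut in either direction. IFITM2, a membrane protein that blocks virus entry, was at 11.2, 13.0 and 12.3 CPM in ASO2, 7.60, 6.27 and 8.18 CPM in ASO4 and 4.84, 5.97 and 4.34 CPM in UT (0.72, adjusted p = 2.97e-05). Its log2 difference against UT was 1.247 for ASO2 and 0.53 for ASO4, both past the test. IFIT5 was at 40.3, 38.4 and 38.6 CPM against 24.4, 26.5 and 27.5 CPM (0.58, adjusted p = 4.81e-07). USP18, TRIM25, IFITM1 and LGALS3BP differed by 0.34 to 0.48. IFIT1 was also called (0.52, adjusted p = 0.00355), though not without ASO2 replicate 1 (0.40, adjusted p = 0.061). The 15 effector groups had means of 8.57 to 13.4 CPM for IFITM2 and 7.83 to 12.85 CPM for IFIT1. The ASO2 means of these genes, 12.2 and 9.02 CPM, lay inside those ranges. For IFIT5 the effector means were 24.7 to 30.8 CPM, and the ASO2 mean of 39.1 CPM lay above them. Among 23 tested NF-kB targets, 3 were higher and none lower (1 lower without ASO2 replicate 1). PTX3, a secreted pattern-recognition protein, was the one that kept its call when any library was left out (0.57, adjusted p = 0.000587). RELB lost it without ASO2 replicate 2 (0.43, adjusted p = 0.0509), and IL32 without ASO2 replicate 3 (0.63, adjusted p = 0.0678) or ASO4 replicate 3 (0.68, adjusted p = 0.0522).

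**Figure D4:**
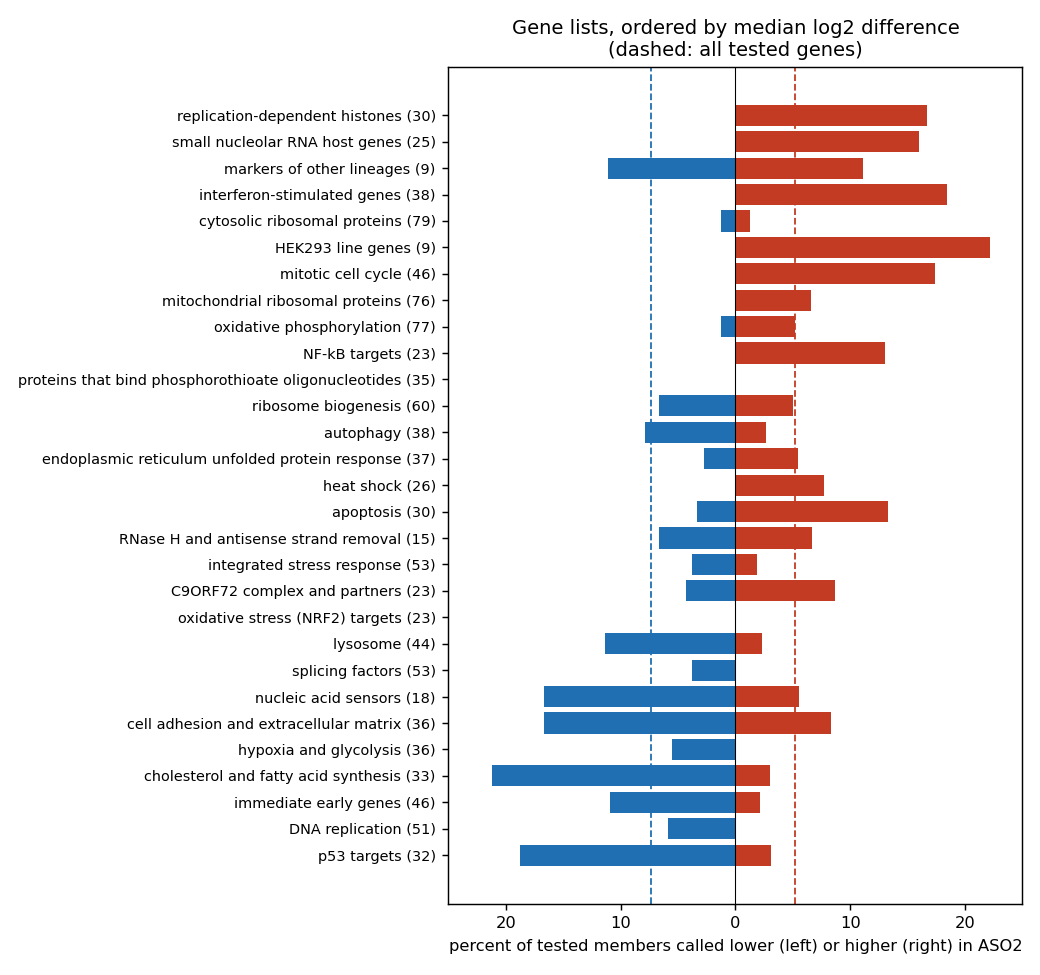
Percent of the tested members of each of 29 gene lists called lower (blue, left) or higher (red, right) in ASO2 than in ASO4, with the number tested in brackets. Lists are ordered by median log2 difference, and dashed lines give the shares over all tested genes, 7.33% and 5.15%. The lists of interferon-stimulated, mitotic, histone and small nucleolar RNA host genes show bars to the right and none to the left. EIF2AK2, called lower, was listed among the nucleic acid sensors.

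Targets of p53, the transcription factor of the DNA damage response, were lower in 6 of 32 tested (18.8%) and higher in 1, with a median of -0.15. When 1 library was left out, 4 to 7 were lower. CDKN1A, an inhibitor of cyclin-dependent kinases, fell by 0.60 on the log2 scale (adjusted p = 5.62e-10). SPATA18 was at 7.60, 7.62 and 8.33 CPM in ASO2 and 12.7, 9.72 and 13.8 CPM in ASO4 (-0.63, adjusted p = 7.74e-05). PHLDA3, an inhibitor of AKT signalling, was at 8.97, 9.99 and 8.66 CPM against 13.0, 15.98 and 13.6 CPM (-0.62, adjusted p = 0.000412). GDF15, a stress-induced secreted factor, was at 1.78, 1.75 and 2.45 CPM in ASO2, 3.50, 4.27 and 3.196 CPM in ASO4 and 1.55, 1.99 and 2.12 CPM in UT, so ASO4 stood apart there. Its log2 difference was -0.87 (adjusted p = 0.00902), and its call was lost without ASO2 replicate 1 (-0.78, adjusted p = 0.0522) or ASO4 replicate 2 (-0.75, adjusted p = 0.0538). The single higher member became 2 without ASO2 replicate 1 and 0 without ASO4 replicate 1. The median of the p53 list against UT was 0.06 for ASO2 and 0.15 for ASO4.

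Other stress lists had few calls. The integrated stress response had 1 higher and 2 lower of 53 tested, and the list of unfolded protein response genes 2 higher and 1 lower of 37. Targets of NRF2 had none of 23 called in edgeR, limma or DESeq2. At an unadjusted p under 0.05, 6 NRF2 targets were higher and 6 lower, against 34.9% of all tested genes in either direction. For the integrated stress response, the higher count was 0 without ASO2 replicate 3, ASO4 replicate 2 or ASO4 replicate 3, and the lower count was 0 without ASO2 replicate 1 and 1 on leaving out ASO2 replicate 2 or each of the 3 ASO4 libraries in turn. For the unfolded protein response, the higher count was 1 without ASO2 replicate 1 or ASO4 replicate 1, and the lower count was 0 without ASO2 replicate 3 or ASO4 replicate 2. The NRF2 list had 1 higher without ASO2 replicate 3 and 1 lower without ASO2 replicate 1. In the heat shock list 2 of 26 were higher, and 4 without ASO2 replicate 3. CHORDC1, a co-chaperone of HSP90, was at 140, 120.0 and 120.0 CPM in ASO2 and 81.5, 77.2 and 85.8 CPM in ASO4 (0.63, adjusted p = 2.09e-07), and HSPB1, a small heat shock protein, differed by 0.39 (adjusted p = 1.49e-05). Of 30 tested apoptosis genes, 4 were higher and 1 lower. BIK, a BH3-only activator of apoptosis, was at 3.56, 3.33 and 2.37 CPM in ASO2 and 1.04, 1.18 and 1.26 CPM in ASO4 (1.41 ± 0.32, adjusted p = 0.000549). The count of higher apoptosis genes fell to 2 without ASO2 replicate 1, ASO2 replicate 3 or ASO4 replicate 1. Immediate early genes were lower in 5 of 46 and higher in 1. That count became 1 without ASO4 replicate 2 and 8 without ASO2 replicate 2 or ASO4 replicate 3, and SPRED2, an inhibitor of RAS signalling, was a member that kept its call throughout (-0.41, adjusted p = 0.000273).

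Enzymes of cholesterol and fatty acid synthesis were lower in 7 of 33 tested (21.2%) and higher in 1, with a median of -0.09. When 1 library was left out, 5 to 8 were lower. MVD, which makes isopentenyl diphosphate in the mevalonate pathway, was at 24.8, 24.9 and 21.1 CPM in ASO2 and 36.5, 42.7 and 37.3 CPM in ASO4 (-0.71 ± 0.10, adjusted p = 7.40e-08). DHCR7, which performs the last step of cholesterol synthesis, was at 94.3, 86.6 and 76.0 CPM against 114, 134 and 109.1 CPM (-0.47, adjusted p = 6.87e-07). PMVK, LSS, CYP51A1 and FASN differed by -0.44 to -0.33. The member called higher was called only when all libraries or all but ASO2 replicate 3 were used, among the fits that left out 1 library. Against UT the median of this list was 0.01 for ASO2 and 0.08 for ASO4. In the list of hypoxia and glycolysis, 2 of 36 genes were lower, the collagen prolyl hydroxylases P4HA1 and P4HA2. P4HA2 kept its call (-0.41, adjusted p = 1.03e-05), and P4HA1 (-0.47, adjusted p = 0.0182) lost it without ASO2 replicate 3 (-0.35, adjusted p = 0.124) or ASO4 replicate 2 (-0.37, adjusted p = 0.114), and in a fit of the 6 compared libraries alone (-0.48, adjusted p = 0.099).

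Mitotic genes were higher in ASO2 in 8 of 46 tested (17.4%) and lower in none, with a median of 0.15. CCNB1, cyclin B1, was at 143, 156 and 142 CPM in ASO2, 104, 97.4 and 106 CPM in ASO4 and 108, 97.7 and 101 CPM in UT (0.52 ± 0.05, adjusted p = 3.78e-12). CDC20, which activates the ubiquitin ligase of anaphase, was at 100.2, 96.4 and 103 CPM against 69.7, 73.2 and 77.4 CPM in ASO4 (0.44, adjusted p = 2.78e-09). KIF20A, AURKA, NEK2, PLK1, PTTG1 and KIF20B differed by 0.33 to 0.46. The effector groups had CCNB1 means of 119 to 199 CPM, so the ASO2 level lay inside their range. DNA replication genes were lower in 3 of 51 and higher in none, with a median of -0.10. LIG1, the replicative DNA ligase, differed by -0.57 (adjusted p = 1.45e-05) and POLE, the leading-strand polymerase, by -0.37 (adjusted p = 1.21e-06). E2F1 (-0.35, adjusted p = 0.000394) fell under the fold threshold without ASO2 replicate 1 (-0.27) or ASO4 replicate 2 (-0.31), and its adjusted p was 0.0618 with no factor of unwanted variation.

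Replication-dependent histones were higher in 5 of 30 tested (16.7%) and lower in none, with a median of 0.38. H2BC5 was at 6.64, 7.45 and 6.53 CPM in ASO2 and 4.62, 3.45 and 4.09 CPM in ASO4 (0.75, adjusted p = 0.0014). H4C15 was at 37.4, 39.9 and 36.9 CPM against 23.6, 25.1 and 24.8 CPM (0.63, adjusted p = 0.00569). Histone mRNAs mostly lack a poly(A) tail, the libraries were made from poly(A) RNA, and several histone genes are near-identical, so these values are uncertain. Without ASO2 replicate 2, ASO4 replicate 1 or ASO4 replicate 3, the count was 3.

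Few genes of ribosomes and respiration were called, though most lay slightly higher in ASO2. Of 79 tested cytosolic ribosomal proteins, 1 was called higher and 1 lower. Their median log2 difference was 0.18, and 76 had a value above 0, against 7978 of all 15378 tested genes. The libraries of the groups did not overlap for 68 of the 79, against 5597 of all 15378 tested genes. The count called higher was 0 without ASO2 replicate 2, 4 without ASO2 replicate 3, 3 without ASO4 replicate 1 and 2 on leaving out each of the other 3 libraries in turn. RPS6 was at 2757, 3097 and 2747 CPM in ASO2 and 2201, 2253 and 2266 CPM in ASO4 (0.36, adjusted p = 1.36e-06), and lost its call by fold without ASO2 replicate 2 (0.30). RPS2 was at 4695, 4801 and 4689 CPM against 5792, 6395 and 6448 CPM (-0.39, adjusted p = 1.77e-07). Both have processed pseudogenes that can take reads. Of 77 tested oxidative phosphorylation genes, 4 were called higher and 1 lower, with a median of 0.14 and 66 values above 0. The groups did not overlap for 46 of the 77. NDUFB8, a complex I subunit, was at 110, 111 and 105 CPM in ASO2 and 77.9, 81.6 and 78.8 CPM in ASO4 (0.45, adjusted p = 2.32e-07). Its partner NDUFV1, which binds NADH, differed by -0.39 (adjusted p = 3.18e-08). Mitochondrial ribosomal proteins were higher in 5 of 76 and lower in none, with a median of 0.14. The groups did not overlap for 39 of the 76. Without ASO2 replicate 3, the count called higher for oxidative phosphorylation was 7. Without ASO2 replicate 2, the count called higher for mitochondrial ribosomal proteins was 3.

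Of 60 tested ribosome biogenesis factors, 3 were higher and 4 lower, and the higher count was 6 without ASO2 replicate 3 and 5 without ASO4 replicate 2. BOP1, a factor for the large ribosomal subunit, was at 21.7, 21.4 and 23.4 CPM in ASO2 and 36.6, 34.0 and 34.8 CPM in ASO4 (-0.67, adjusted p = 1.86e-09). Of 25 tested small nucleolar RNA host genes, 4 were higher (16%) and none lower, and 3 to 5 were higher when 1 library was left out. SNHG3 was at 72.8, 77.2 and 80.1 CPM in ASO2, 38.3, 43.4 and 45.5 CPM in ASO4 and 35.8, 31.5 and 35.8 CPM in UT (0.86 ± 0.07, adjusted p = 5.74e-14). The 15 effector groups had SNHG3 means of 41.8 to 87.5 CPM, so the ASO2 level lay inside their range. DANCR differed by 0.67 (adjusted p = 5.16e-08). SNHG19 differed by 0.75 (adjusted p = 0.0191). It lost its call without ASO2 replicate 2, ASO2 replicate 3, ASO4 replicate 1 or ASO4 replicate 3, and with no factor of unwanted variation. SNHG9 was low and overlapped between groups, at 0.79 to 1.96 CPM in ASO2 and 0.15 to 0.91 CPM in ASO4. Splicing factors had 2 lower of 53, U2AF2 (-0.36, adjusted p = 1.29e-07) and PRPF6 (-0.35, adjusted p = 9.93e-06). PRPF6 fell under the fold threshold without ASO2 replicate 2 (-0.31) or ASO4 replicate 2 (-0.32).

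Among 36 tested genes of adhesion and extracellular matrix, 6 were lower (16.7%) and 3 higher. When 1 library was left out, 4 to 8 were lower and 3 to 4 higher. COL5A1, a fibrillar collagen chain, was at 21.4, 21.5 and 17.6 CPM in ASO2 and 35.2, 36.0 and 31.6 CPM in ASO4 (-0.76, adjusted p = 0.000175). TIMP3 and TIMP1, inhibitors of matrix metalloproteinases, moved in opposite directions. TIMP3 was at 105, 104 and 98.8 CPM against 145, 146 and 132 CPM (-0.46, adjusted p = 2.11e-09), with UT at 172 to 179 CPM. TIMP1 was at 74.2, 80.5 and 69.2 CPM against 52.7, 55.5 and 53.95 CPM (0.47, adjusted p = 8.38e-06). Of the 9 HEK293 line genes, INA (0.45, adjusted p = 4.79e-05) and KRT18 (0.32, adjusted p = 3.61e-05) were higher, the latter close to the fold threshold and under it without ASO2 replicate 1 (0.31), ASO2 replicate 3 (0.29) or ASO4 replicate 2 (0.27). It was also under the threshold with DESeq2, with DESeq2 size factors, with no low-count filter and in both fits of fewer groups (0.31 to 0.32).

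The genes called lower in ASO2 were long and GC-rich more often than the rest. Tested genes were put into 4 bins of equal size by genomic span, from the start to the end of the RefSeq gene. In the shortest bin (up to 11.3 kb), 3.64% of genes were lower and 9.12% higher in ASO2. In the longest (over 75.8 kb), 11.4% were lower and 2.94% higher. The median log2 difference went from 0.09 to -0.04, and each ASO2 library taken alone against the ASO4 mean gave the same order of these bins (0.08 to 0.10 in the shortest and -0.05 to -0.03 in the longest). By GC content of the main GENCODE transcript, 3.87% of genes were lower in the poorest bin and 13.2% in the richest. Genes both in the longest bin by span and the richest by GC numbered 344, and 121 of them (35.2%) were lower and 2 (0.581%) higher, with a median of -0.28. Among 1493 equally GC-rich genes in the shortest bin, 6.03% were lower. Among 1272 equally long genes in the poorest GC bin, 5.74% were lower. This grouping was chosen after the values had been seen, and it is given without a test because genes are not independent.

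In the 344 long GC-rich genes, the median log2 level relative to UT and to all genes was -0.32 to -0.37 in the ASO2 libraries, -0.07 to -0.01 in the ASO4 libraries and -0.05 to 0.02 in the UT libraries. ASO2 was not the only group with low values. Over the 45 libraries of the 15 effector groups the same quantity ran from -0.46 to 0.04, and 5 of them, in the 3 groups N2V7_S4, N2V7_S7 and N2V8_S3, lay at or below the highest ASO2 library. In 9 of the 15 effector groups every library lay below all UT and ASO4 libraries. In N2V7_NTG, WT_NTG and N2V7_S3, by contrast, the libraries lay between -0.05 and 0.04. By class, 2.86% of 1329 long noncoding RNAs were lower and 6.77% higher in ASO2, compared with 7.85% and 5.07% of 13525 protein-coding genes. Whether the pattern arose in the cells or in making the libraries was not tested.

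**Figure D5:**
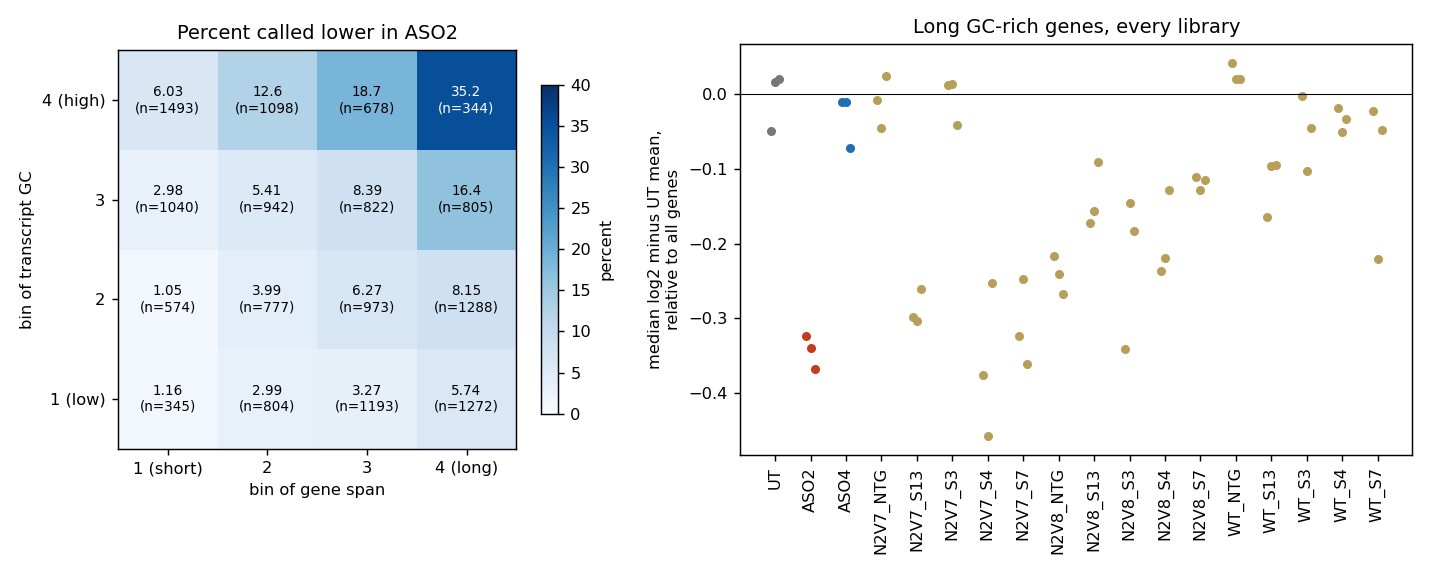
Left, percent of genes called lower in ASO2 than in ASO4 by bin of gene span (x axis) and of transcript GC content (y axis), with the number of genes. The share goes from 1.16% in short, GC-poor genes to 35.2% in long, GC-rich genes. Right, for the 344 long, GC-rich genes, the median log2 difference from the UT mean relative to all genes in each of the 54 libraries, with ASO2 at -0.37 to -0.32 and several effector groups (ochre) in or near that range.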

How the data were processed

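RNA from HEK293T cells was sequenced as paired-end, stranded poly(A) libraries on 1 lane. The deposited table holds estimated counts for 38137 genes, made by the authors with Salmon (version 1.5.2, from the submitters' processing notes) on NCBI transcripts with a GRCh38 decoy and tximport's lengthScaledTPM option. These counts are scaled for transcript length, and reads of near-identical genes are shared by an estimate. A second column (unit: other) is the authors' TRUE or FALSE mark of kept genes, used here in an alternative.

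Counts were rounded, filtered with filterByExpr (15378 genes left) and scaled by TMM in edgeR (version 4.0.16, R 4.3.3). The table gives no genome coordinates, so those printed are RefSeq's or GENCODE's on GRCh38. All 54 libraries were fitted with edgeR's quasi-likelihood test, with a term for each group and 1 unwanted-variation factor taken from the residuals (23.4% of residual variance). The N2V7_S4 libraries held 95.6% of its squared weight and the 6 compared libraries 0.0649%. All groups entered so that they share 1 estimate of the spread. Benjamini-Hochberg adjustment ran over the genes of ASO2 against ASO4, and over both comparisons with UT together. The study's own fit was limma-trend with 1 such factor and is an alternative here, as are DESeq2 (version 1.42.0), other scalings, filters, library sets and leaving out each library. SE and 95% intervals are from the fit. CPM values are TMM-scaled. Estimated counts cover 11416452 to 15099153 per compared library. The p-values rest on the spread between libraries of a group, estimated over all 54 libraries and not over the compared ones alone. For C9orf72 the adjusted p of edgeR's test was 3.15e-17 in this fit. It was 8.6e-11 in a fit of the 6 compared libraries with no factor.

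Named genes were C9orf72, SMCR8, WDR41, RNASEH1, the 12 largest rises and falls among called genes whose libraries did not overlap and whose mean log2 CPM reached 2 (locus-number and readthrough names aside), and up to 3 called members per list. Further called members of a list were named after their values were seen. Some genes that met the rule are not reported here. The members and the 29 lists were chosen with earlier results of these data known. On simulated counts for ASO2 against ASO4 (15114 genes tested), 79.1% of genes changed 1.5-fold were found, with 5 false calls. Of those changed 2-fold and 3-fold, 98.5% and 100% were found. Changes were put only into genes whose mean CPM was at least 2 on the log2 scale. All other genes had the same mean in every group, and no unwanted-variation factor was simulated. The rates and false calls hold for that setting, which lacks the shifts between groups seen in the real libraries.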

Additional observations from a re-analysis of the deposited data

How the results depend on the processing

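C9orf72 kept its direction and call under all 16 alternatives, with log2 differences of 1.40 to 1.49. The count of called genes was 1600 to 1982 under changes of test, scaling, filter or library set, against 1919, and 1694 to 1884 when 1 library was left out. It was 3635 with no fold threshold and 217 at a fold over 2. The share of called genes lower in ASO2 was 58.0 to 63.9%, and 84.1 to 100% of the genes called by an alternative were also called by the design reported. Of 95 called named genes, 72 kept their call under every alternative and 22 lost it on leaving out 1 library, and none reversed. The long GC-rich genes were lower in 30.2 to 37.2% under the alternatives, a range chosen after seeing the data, and the short GC-rich genes in 4.42 to 6.23%. Residuals of same-numbered ASO2 and ASO4 libraries correlated at -0.0454, 0.0298 and -0.0114, so the numbers were not treated as pairs. With the replicate block, 1924 genes were called and C9orf72 differed by 1.44 on the log2 scale. Genes under about 1 CPM rest on few counts, and differences there were not detectable at this depth unless large.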
